A study of Mus musculus with 11 samples.

Results

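Tgfb2, Fstl1, Sfrp1 and Tgm2 code for proteins that can act outside the cell, and they are described here in mice whose hearts had dilated. They were chosen by gene symbol, with a higher level in dilated than in wild-type hearts already known from these arrays. Each is read by 2 spots, so the 4 genes hold 8 of the 17664 spots on the arrays and 4 of the 8146 gene symbols. The animals were 12 male C57/BL6 mice, about 60 weeks old, of the TG1306/1R line, in which a transgene makes the heart produce extra angiotensinogen, the precursor of angiotensin II. Wild-type littermates (-/-) formed the WT group. Heterozygous carriers (+/-) with concentric hypertrophy formed the Hyp group, and heterozygous carriers with dilated hearts formed the Dil group, with 4 mice in each. Carriers were sorted into Hyp and Dil by genotype, chamber morphology, cardiac weight index and hypertrophic marker expression. Both carrier groups therefore share the transgene and differ by the other measures used to sort them, which include expression. RNA came from both ventricles and the septum, and no group had a further treatment. The promoter that drives the transgene is not given in the sources used here.

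Tgfb2 codes for transforming growth factor beta 2, a ligand that is secreted in a latent complex, binds type II and type I receptor kinases and signals through SMAD proteins. Fstl1 codes for follistatin-like 1, a secreted glycoprotein of the SPARC family that heart muscle and fibroblasts release after injury. Sfrp1 codes for secreted frizzled-related protein 1, which binds Wnt ligands outside the cell and limits their signal. Tgm2 codes for transglutaminase 2, an enzyme that cross-links matrix proteins and can tether latent TGF-beta complexes to the matrix. Fibrosis of the failing heart is classically tied to TGF-beta signalling, and both TGF-beta and angiotensin II are known inducers of matrix genes in cardiac fibroblasts.

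Promoter sequences were matched by symbol in RefSeq (build GRCm38.p6) for 2 of the 4 genes, Tgfb2 and Fstl1. Both are shown so that the letters before the start sites of genes with much alike ratios over the arrays (values below) can be compared. Each line gives the 250 bases before the annotated start site, 5′ to 3′ on the gene's own strand, at chr1:186705990-186706239 (minus strand) for Tgfb2 and chr16:37776805-37777054 (plus strand) for Fstl1. Capitals mark CAGAC (the SMAD-binding core), TATAAA (the TATA box) and GGGCGG (the Sp1 box), searched on both strands.
Tgfb2: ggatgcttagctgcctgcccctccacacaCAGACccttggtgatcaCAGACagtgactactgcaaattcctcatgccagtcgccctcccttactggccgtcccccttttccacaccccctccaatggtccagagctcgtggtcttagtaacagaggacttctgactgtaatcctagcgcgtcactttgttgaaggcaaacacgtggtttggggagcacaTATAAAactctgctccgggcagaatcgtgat
Fstl1: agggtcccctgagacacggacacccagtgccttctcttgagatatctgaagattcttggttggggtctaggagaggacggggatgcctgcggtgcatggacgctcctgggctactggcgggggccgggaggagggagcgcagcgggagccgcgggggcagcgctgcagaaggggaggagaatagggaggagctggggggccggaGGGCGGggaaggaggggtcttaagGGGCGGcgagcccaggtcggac
The Tgfb2 window held CAGAC at 2 places, starting 221 and 204 bases before the start site, and TATAAA starting 31 bases before it. It also held CCAAT, starting 130 bases before it, and GGAAA (the NFAT core) on the opposite strand. The Fstl1 window held GGGCGG at 2 places, starting 46 and 22 bases before the start site, and no CAGAC or TATAAA. Neither window held GTCTAGAC (a SMAD palindrome), TGANTCA (AP-1) or GGAATG (TEAD). The 2 windows therefore shared none of the 8 motifs searched. Among 32851 RefSeq windows of the same length, CAGAC was present in 42.19%, TATAAA in 12.37%, GGGCGG in 32.74%, CCAAT in 33.85%, GGAAA in 55.57%, TGANTCA in 6.75%, GGAATG in 12.64% and GTCTAGAC in 0.17%. These matches describe letters in a window and not bound sites.

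Each of the 11 arrays compared 2 mice that carry the same number, which are called a set here, with 1 mouse in Cy3 and the other in Cy5. There were 4 arrays of Hyp against WT, 4 of Dil against Hyp and 3 of Dil against WT, and the Dil against WT array of set 2 was not analysed here. Every array gave a ratio at 17207 spots, a ratio holds no level, and values are therefore differences between mice on the log2 scale. The direction, Cy5 over Cy3, is likely and not stated in the sources: under it Agt was higher than WT by 2.09 ± 0.40 in Hyp and 2.15 ± 0.40 in Dil (SE, 4 mice per group), and Nppb by 1.02 ± 0.30 and 2.53 ± 0.32 (B-type natriuretic peptide, a hypertrophic marker). These genes are the basis of the direction, and the opposite one would turn every sign below. The base of the logarithm is also not stated and was taken as 2. The rows of the array of WT1 and Hyp1 lay out of order and were realigned, and all 8 spots kept a value on it. The second Sfrp1 spot lies in a group made otherwise of control spots, which cannot place it, but over the 31 spots at its position across blocks the correlation with the other set 1 arrays was 0.907 in their own place and 0.249 when shifted by 8 blocks. Only 3 of 12 cardiomyocyte markers (Ttn, Ryr2 and Actn2) had a measured spot, and ratios cannot show whether a marker is present, so the tissue label was not checked by level. In bulk ventricle, fewer cells of a type and less RNA per cell cannot be told apart.

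Tgfb2 was higher in the Dil mouse at both of its spots on all 7 arrays that held a Dil mouse. Against WT, its first spot read 0.49 in set 1, 1.29 in set 3 and 1.65 in set 4. Its second spot read 1.06, 1.93 and 2.84 in the same sets, so the gene lay highest in set 4 and lowest in set 1 at both spots. Against Hyp, the first spot read 0.20, 0.43, 1.42 and 1.22 in sets 1 to 4, and the second read 0.68, 0.76, 2.04 and 2.30. Sets 3 and 4 thus lay above sets 1 and 2 at both spots, with no overlap. Between Hyp and WT the first spot read 0.08, -0.07, 0.19 and -0.30 and the second -0.24, -0.12, 0.43 and -0.02, so neither kept 1 sign. The 2 spots moved together over the 11 arrays, with a cosine (uncentred correlation) of 0.983, a description over arrays that share mice. The cosine is the same whichever way a ratio is turned, but a dye effect of a spot enters it. Over the 1870 genes with 2 spots the median cosine was 0.245 and the 95th percentile 0.884.

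**Figure D1:**
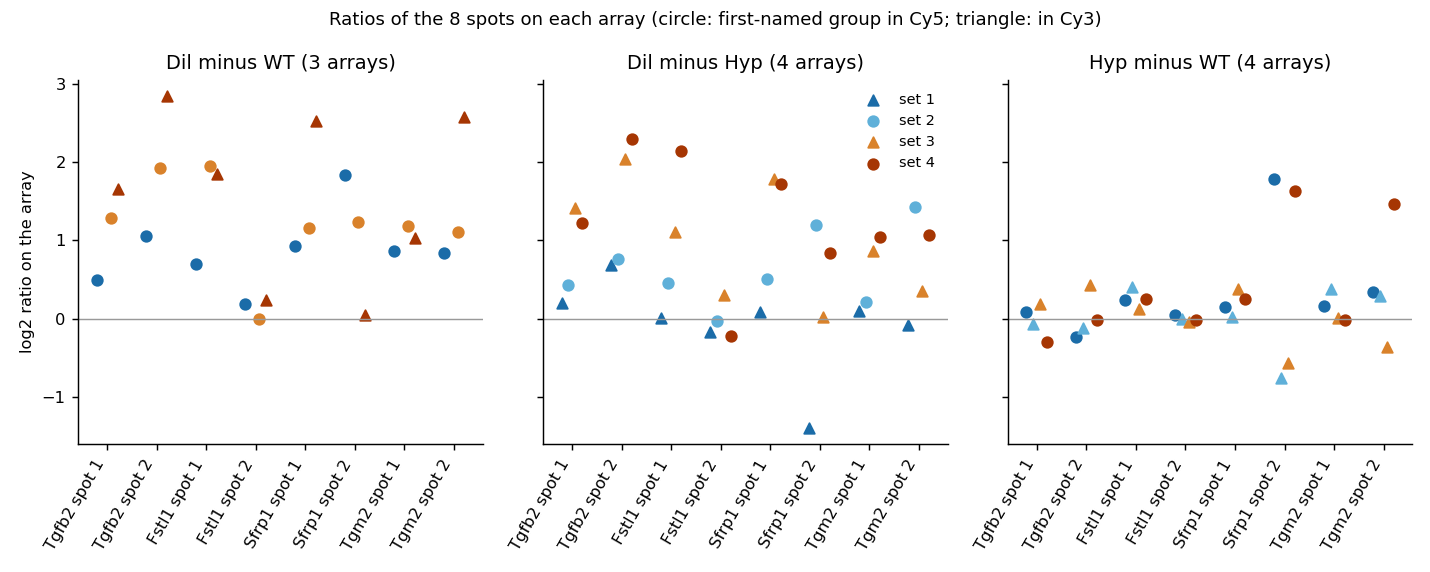
Log2 ratio (vertical axis) of each of the 8 spots (horizontal axis) on every array, by comparison; colour gives the set, circles mark arrays with the first-named group in Cy5 and triangles arrays with it in Cy3. Both Tgfb2 spots lie above 0 on every array with a Dil mouse, the second Fstl1 spot stays near 0, and the second Sfrp1 spot is high as a circle and low as a triangle.

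The Fstl1 spots gave different readings. On the Dil against WT arrays of sets 1, 3 and 4 the first spot read 0.70, 1.95 and 1.85, and the second read 0.18, 0.00 and 0.23. Against Hyp, the first spot read 0.01, 0.46, 1.11 and 2.14 in sets 1 to 4, and the second read -0.17, -0.03, 0.30 and -0.22. The higher level of Fstl1 in Dil hearts therefore rests on 1 of its 2 spots. On the arrays of Hyp against WT the first spot lay above 0 in every set (0.24, 0.40, 0.12 and 0.25), though at -0.22 in set 1 once the dye effect was cancelled, and the second stayed between -0.04 and 0.05. The cosine between the 2 Fstl1 spots was 0.215, near the median of genes with 2 spots. Which stretch of the transcript each spot reads is not given in the sources used here.

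Sfrp1 had 1 spot that followed the heart and 1 spot that also followed the dye. The first spot read 0.92, 1.16 and 2.53 in Dil against WT (sets 1, 3 and 4) and 0.09, 0.50, 1.78 and 1.72 in Dil against Hyp (sets 1 to 4), so it was higher in the Dil mouse on all 7 arrays. In Hyp against WT it read 0.15, 0.02, 0.38 and 0.25. The second spot read 1.83 and 1.23 in sets 1 and 3, where Dil was in Cy5, and 0.05 in set 4, where Dil was in Cy3. In Hyp against WT it read 1.78 (set 1) and 1.63 (set 4) with Hyp in Cy5, and -0.75 (set 2) and -0.56 (set 3) with Hyp in Cy3. Its sign there followed the dye in all 4 sets.

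The dye effect of a spot can be read from sets 3 and 4, where the 3 arrays form a loop in which the differences between mice cancel. This takes each name as 1 mouse, although Hyp3 carries an index of 5.3 mg/g on 1 array and 5.6 mg/g on the other. The second Sfrp1 spot had a dye effect of 0.59 in set 3 and 0.81 in set 4, and only 0.516% of the 16471 spots had a higher mean. The other 7 spots had means between -0.26 and 0.21, within the 5th to 95th percentile range of all spots (-0.25 to 0.28) except the first Sfrp1 spot, just below it. In set 1 the 3 arrays also close on the dye effect, but with their error undivided. There the second Sfrp1 spot read 1.45 and the other 7 read 0.22 to 0.68, with 4 of these above the 95th percentile of 12704 spots (0.48). Both Tgfb2 spots, the first Sfrp1 spot and the second Fstl1 spot were below 0 in sets 3 and 4. The first Sfrp1 spot, for one, read 0.682 in set 1 and -0.335 and -0.186 in sets 3 and 4. Direct set 1 values with Dil1 in Cy5 are therefore larger than those with the dye cancelled. What is cancelled in set 1 holds array error as well as dye, and the 2 were not told apart. The second Sfrp1 spot was printed at a place in its block where 26 named spots sit across blocks, and 25 of these with a measured value had a median dye effect of 0.78 (0.08 to 1.11), against -0.01 for all spots. What gives these spots their dye effect was not tested.

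**Figure D2:**
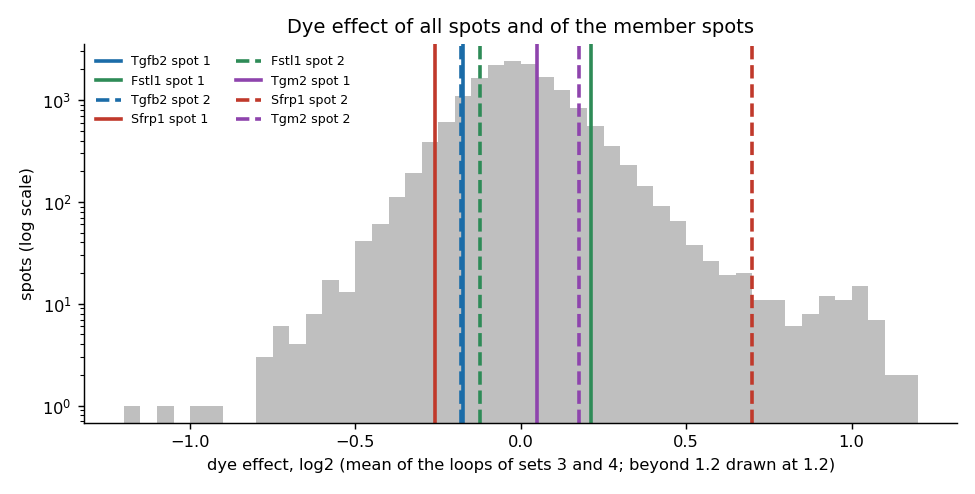
Histogram of the dye effect on the log2 scale (mean of the loops of sets 3 and 4) over 16471 spots, with the number of spots on a log axis; solid and dashed lines mark the first and second spot of each gene. The second Sfrp1 spot lies at 0.70 and the other 7 lines between -0.26 and 0.21.

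Tgm2 was higher in Dil than in WT hearts at both spots. The first spot read 0.86, 1.19 and 1.03 in sets 1, 3 and 4, and the second read 0.84, 1.11 and 2.57. Against Hyp, the first spot read 0.10, 0.22, 0.86 and 1.04 in sets 1 to 4, and the second read -0.08, 1.43, 0.36 and 1.06. On these arrays set 1 was therefore the lowest at both spots in Dil against Hyp, and only the second spot had a value below 0. Dil1 was in Cy3 there, and with the dye effect cancelled set 1 read 0.70 and 0.50. In Hyp against WT the first spot read 0.16, 0.37, 0.01 and -0.02, and the second read 0.34, 0.29, -0.36 and 1.46. The second spot of the Hyp against WT array of set 4 stood well above the other 3. The cosine between the Tgm2 spots was 0.752.

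With the dye effect cancelled, Dil against WT could be given in all 4 sets, in set 2 through Hyp2. As the mean of both spots, Tgfb2 read 0.36, 0.50, 1.75 and 2.03 in sets 1 to 4. Sfrp1 read 0.31, 0.48, 1.07 and 1.60, and Fstl1 read 0.06, 0.41, 0.90 and 1.05. Tgm2 read 0.26, 1.15, 0.91 and 1.79 and was the only one whose set 2 lay above set 3. Of the 8 spots, 7 were above 0 in every set, and the second Fstl1 spot read -0.12, -0.04, 0.09 and 0.08. The mean over sets, with SD over the 4 sets, was 0.86 ± 0.63 and 1.46 ± 1.09 for the Tgfb2 spots, 1.21 ± 0.81 and 0.00 ± 0.10 for Fstl1, 1.15 ± 0.96 and 0.58 ± 0.21 for Sfrp1 and 0.74 ± 0.39 and 1.32 ± 1.03 for Tgm2. These are the values the genes were chosen on, and no test is given for them.

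**Figure D3:**
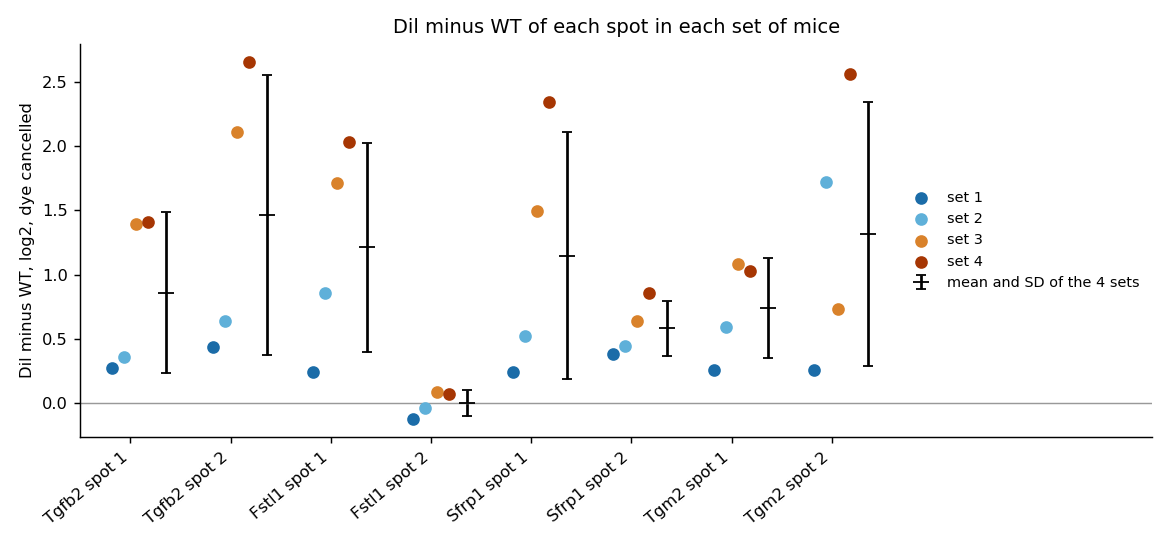
Dil minus WT on the log2 scale with the dye effect cancelled (vertical axis) for each spot (horizontal axis), 1 coloured point per set; black marks and bars give the mean and SD of the 4 sets. Sets 3 and 4 lie above sets 1 and 2 at every spot except the second Tgm2 spot, and the second Fstl1 spot lies between -0.12 and 0.09.

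The larger values of sets 3 and 4 went with wider arrays. The scaled median absolute deviation over all spots was 0.335 and 0.354 on the Dil against WT arrays of sets 3 and 4 and 0.172 on that of set 1, and on the Dil against Hyp arrays it was 0.127, 0.169, 0.236 and 0.250 for sets 1 to 4. The cardiac weight index was 8.1, 7.8, 7.8 and 9.2 mg/g in Dil1 to Dil4, so Dil3, in a set with large values, had the same index as Dil2. Whether the width of the arrays or the state of the hearts moved the members' values was not tested. With arrays scaled to the same spread, fitted Dil minus WT was 1.00 for Tgfb2, 0.51 for Fstl1, 0.82 for Sfrp1 and 0.83 for Tgm2. Without scaling it was 1.36, 0.70, 1.06 and 1.10, so all 4 values fell. Scaling divides an array by 1 positive number and cannot turn the sign of a ratio, so nothing is read from the signs.

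Fitted over all 11 arrays with the dye and the shared mice in the model, Dil minus WT was 1.36 ± 0.23 for Tgfb2, 0.70 ± 0.14 for Fstl1, 1.06 ± 0.21 for Sfrp1 and 1.10 ± 0.17 for Tgm2 (SE, 4 mice per group). As fold changes these are 2.57, 1.63, 2.08 and 2.14. Each of these values averages 2 spots, and spot by spot the fit gave 1.00 and 1.73 for Tgfb2, 1.33 and 0.08 for Fstl1, 1.40 and 0.71 for Sfrp1 and 0.87 and 1.33 for Tgm2. As background, 2.15% of 12097 features (genes or unnamed spots) had an adjusted p below 0.05 in Dil minus WT, and 1.83% of 16471 single spots. The 4 genes were picked on this contrast, so nothing is read from where they stand in it.

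**Figure D4:**
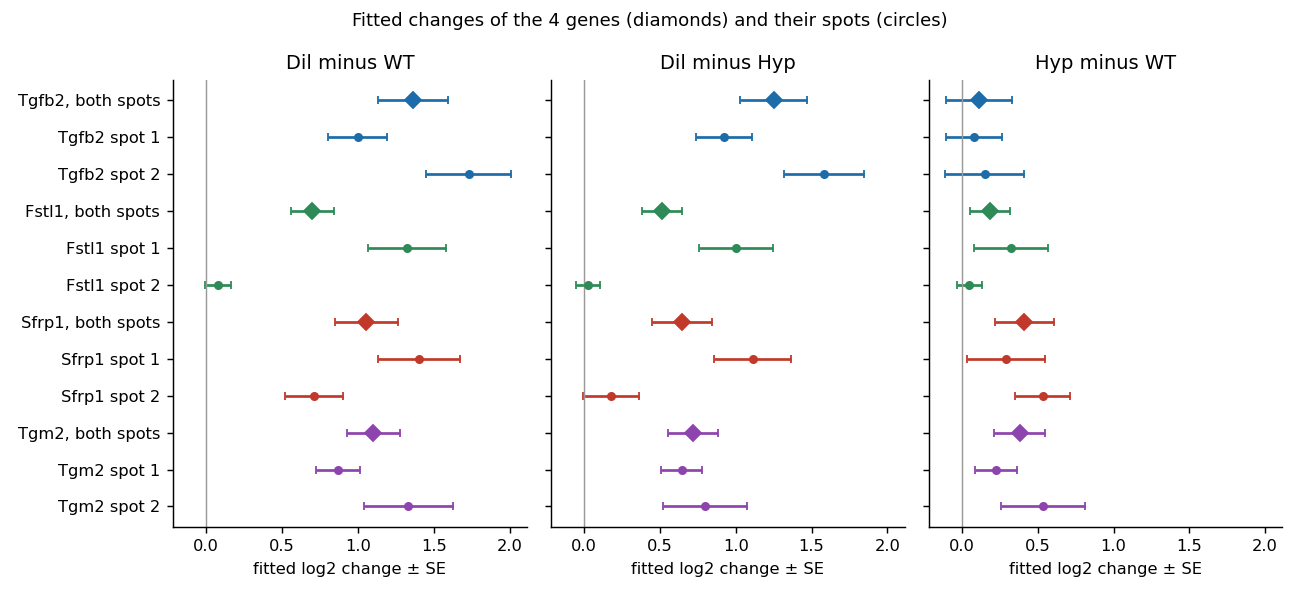
Fitted log2 change (horizontal axis, point with SE as bar) of the 4 genes (diamonds, both spots averaged) and of each spot (circles), in the 3 contrasts with 4 mice per group. Dil minus WT runs from 0.08 for the second Fstl1 spot to 1.73 for the second Tgfb2 spot, and Hyp minus WT stays at or below 0.54.

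In Dil minus Hyp, none of the 4 genes passed an adjusted p of 0.05 over all features (limma's eBayes with Benjamini-Hochberg adjustment). Tgfb2 came nearest, at 1.25 ± 0.22 (2.38-fold, SE, 4 mice per group, adjusted p = 0.0558), and was above 0 on 4 of 4 arrays at both spots. It passed under 5 of 15 other settings, with adjusted p from 0.0101 to 0.9994 over all 15, and the adjusted p was 0.3495 with the replicate block. Tgm2 read 0.72 ± 0.17 (adjusted p = 0.1467), Sfrp1 0.64 ± 0.20 (adjusted p = 0.2797) and Fstl1 0.51 ± 0.13 (adjusted p = 0.1895). In this contrast 0.165% of the features passed, 20 of 12097, of which 17 were higher in Dil, and of the single spots 0.121% passed, none of them a spot of these genes. Dil minus Hyp shares its Dil mice with the contrast the genes were chosen on and is not independent of it.

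In Hyp minus WT the 4 genes read 0.11 ± 0.22 for Tgfb2, 0.19 ± 0.13 for Fstl1, 0.41 ± 0.20 for Sfrp1 and 0.38 ± 0.17 for Tgm2 (SE, 4 mice per group), each with an adjusted p of 0.9994 from limma's eBayes. Without set 1 the Sfrp1 value was 0.24, and without set 4 the Tgm2 value was 0.23. With the dye effect cancelled, which set 2 does not allow for this contrast, the mean of both spots in sets 1, 3 and 4 was -0.50, 0.17 and 0.06 for Tgfb2 and -0.24, 0.12 and 0.10 for Fstl1. It was -0.10, 0.04 and 0.63 for Sfrp1 and -0.34, 0.06 and 0.73 for Tgm2. Each gene was therefore below 0 in set 1 and above 0 in sets 3 and 4. With the dye effect left in, set 1 read 0.06, 0.27, 1.32 and 0.45 for Tgfb2, Fstl1, Sfrp1 and Tgm2, so its sign turned for all 4 genes. The value cancelled in set 1 also holds the error of its arrays. At the Tgfb2 spots it was 0.22 and 0.62, while the dye effect of sets 3 and 4 was below 0 there. The turn of sign is therefore not read as a trait of the Hyp1 mouse, and its cause was not tested. No feature passed in this contrast, that is 0% of the features and 0% of the single spots, while 533 features had an unadjusted p below 0.05 in the same limma fit. A difference that misses the threshold does not show that Hyp and WT hearts had the same level.

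Over the 11 arrays the mean of each gene's 2 spots was compared with that of the others. The cosine was 0.959 between Tgfb2 and Fstl1, 0.930 between Fstl1 and Tgm2, 0.892 between Sfrp1 and Tgm2, 0.879 between Tgfb2 and Tgm2, 0.853 between Fstl1 and Sfrp1 and 0.771 between Tgfb2 and Sfrp1. Ranked by likeness to Tgfb2 among 8106 named genes, Fstl1 stood at 17, Tgm2 at 145 and Sfrp1 at 412. For Fstl1 the ranks were 13 (Tgfb2), 54 (Tgm2) and 203 (Sfrp1). For Sfrp1 they were 10 (Tgm2), 27 (Fstl1) and 133 (Tgfb2), and for Tgm2 10 (Fstl1), 32 (Sfrp1) and 52 (Tgfb2). Genes outside the members thus lay closer to each member than its fellow members did, and such cosines are not particular to these genes. By single spots, the first spots of Sfrp1 and Tgfb2 reached 0.967, while the second Sfrp1 spot reached 0.301 with either Tgfb2 spot. The second Fstl1 spot reached 0.400 and 0.324 with the Tgfb2 spots, 0.440 and 0.218 with the Sfrp1 spots and 0.354 and 0.309 with the Tgm2 spots, so the likeness of Fstl1 rests on its first spot. Arrays of a set share mice, the genes were chosen for a shared direction in Dil hearts, and so these cosines are descriptions.

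Among 8106 named genes, those most like Tgfb2 were Otulin (a deubiquitinase of linear ubiquitin chains, cosine 0.988), Efhd2 (a calcium-binding protein, 0.982), Mob1b (a Hippo pathway kinase activator, 0.980), Star (a carrier of cholesterol into mitochondria, 0.978) and Fhl1 (a LIM protein of muscle, 0.977). Otulin and Fhl1 passed in Dil minus Hyp, where Tgfb2 did not, at 0.85 ± 0.13 (adjusted p = 0.0342) and 1.16 ± 0.19 (adjusted p = 0.0397, limma). They were picked for their likeness to Tgfb2 over these same arrays, so their p-values are not independent of that choice and are descriptions. Both calls were lost with the replicate block, on direct arrays and without set 1, set 3 or set 4, since 0 features passed there. Most like Fstl1 were Nkd2 (a Dishevelled-binding Wnt inhibitor, 0.980), Panx1 (a membrane channel, 0.979), Pfkp (a phosphofructokinase, 0.978), Anxa3 (an annexin, 0.969) and Efhd2 (0.967). Most like Sfrp1 were Fgfr1 (a fibroblast growth factor receptor, 0.921), Ankrd28 (0.919), Ccnd2 (cyclin D2, 0.913), Sorl1 (a sorting receptor, 0.909) and Pygl (glycogen phosphorylase, 0.906). Fgfr1 and Sfrp1 both had a fitted dye effect (0.30 and 0.36). Most like Tgm2 were Ndrg1 (0.948), Col4a1 (a basement membrane collagen, 0.942), Dbnl (an actin-binding adaptor, 0.939), Tsr1 (a ribosome maturation factor, 0.939, over 10 arrays) and Eif3a (a translation initiation factor, 0.936). A cosine takes no account of the size of a change. In Dil minus WT the genes most like Tgfb2 read 0.40 (Mob1b) to 1.26 (Fhl1), and those most like Fstl1 0.53 (Anxa3) to 1.04 (Efhd2). Those most like Sfrp1 read 0.12 (Pygl) to 0.61 (Ccnd2), and those most like Tgm2 0.27 (Ndrg1) to 0.62 (Col4a1). Sfrp1 and Tgm2 themselves read 1.06 and 1.10.

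Other ligands of the TGF-beta family were above 0 in Dil minus WT but did not pass. Beside Tgfb2, 9 ligand genes were measured. All 9 had values above 0, 0 of 9 passed (limma), and their median was 0.27, against 0.00 for all features. Over all features 2.15% passed in Dil minus WT. At that share, lists as short as this one and those below would hold few or no calls. Tgfb3 read 0.65 ± 0.18 (adjusted p = 0.0961) and Tgfb1 0.38 ± 0.18 (adjusted p = 0.3246), both from limma's eBayes with 4 mice per group. By set with the dye cancelled, Tgfb3 read -0.06, -0.13, 0.92 and 1.07, high in the same sets as Tgfb2, and Tgfb1 read 0.30, 0.15, -0.02 and 0.68. Inhba, Inhbb and Bmp2 had a fitted dye effect above 0.3 (1.13, 0.96 and 0.59). They read 0.53, 0.43 and 0.27 in Dil minus WT, but also 0.53, 0.44 and 0.40 in Hyp minus WT. In Dil minus Hyp they read 0.01, -0.01 and -0.13.

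Among 11 receptor genes, Bmpr2 (the type II receptor for bone morphogenetic proteins) rose in Dil minus WT by 0.40 ± 0.09 (1 of 11 called, 7 of 11 above 0, limma adjusted p = 0.0407). It read 0.03, 0.50, 0.33 and 0.56 in sets 1 to 4. Its call was lost each time a set was left out (adjusted p = 0.0684, 0.1054, 0.3021 and 0.2349 for sets 1 to 4 in turn) and also with the replicate block (0.1283), on direct arrays (0.2311) and after scaling all arrays to 1 spread (0.0778), and it held under 8 of 15 settings. The TGF-beta receptors themselves read 0.24 (Tgfbr1), 0.14 (Tgfbr2) and -0.24 (Tgfbr3), none of them past the threshold. Of 11 signal transducers none passed: Smad1 read 0.18, Smad2 0.23, Smad3 0.07, Smad4 -0.01, Smad5 0.11 and Smad6 0.32, and 5 of the 11 had a fitted dye effect above 0.3.

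Of 12 genes of TGF-beta latency, activation and inhibition none passed, and their median was 0.19. Fstl3, a secreted inhibitor of activin and myostatin in the same family as follistatin, read 1.26 ± 0.28 (adjusted p = 0.0528, limma, 4 mice per group), close to the value of Tgfb2, and 0.45, 1.74 and 2.05 in sets 2 to 4. Ltbp1, which holds latent TGF-beta in the matrix, read -0.20 ± 0.06 (adjusted p = 0.1089). Beside Fstl1, 6 genes of the follistatin and SPARC family were measured and none passed; Sparc read 0.69 ± 0.21 (adjusted p = 0.1179), Sparcl1 read 0.06, and the median of the 6 was 0.05.

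The genes known as TGF-beta targets had the highest median of the 10 pathway lists in Dil minus WT, 0.56, with 15 of 17 above 0. Of the 17, 0 passed (limma), where 2.15% of all features did, so nothing is read from that count. With arrays scaled to the same spread the median was 0.34 and 15 of 17 were again above 0. By set, with the dye cancelled, the median was -0.08, 0.12, 0.54 and 0.98. It was thus high in sets 3 and 4, as Tgfb2, Fstl1 and Sfrp1 were, and below 0 in set 1, where all 4 members' means were above 0. Over all named genes the same medians were -0.01, -0.01, 0.00 and 0.01. The list includes matrix genes such as Timp1 (an inhibitor of matrix proteases, 1.33 ± 0.43), Bgn (biglycan, 1.16 ± 0.32), Fn1 (fibronectin, 0.82 ± 0.26) and Col3a1 (a fibrillar collagen, 0.62 ± 0.17), named after their values were seen. In Hyp minus WT the list's median was 0.11.

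**Figure D5:**
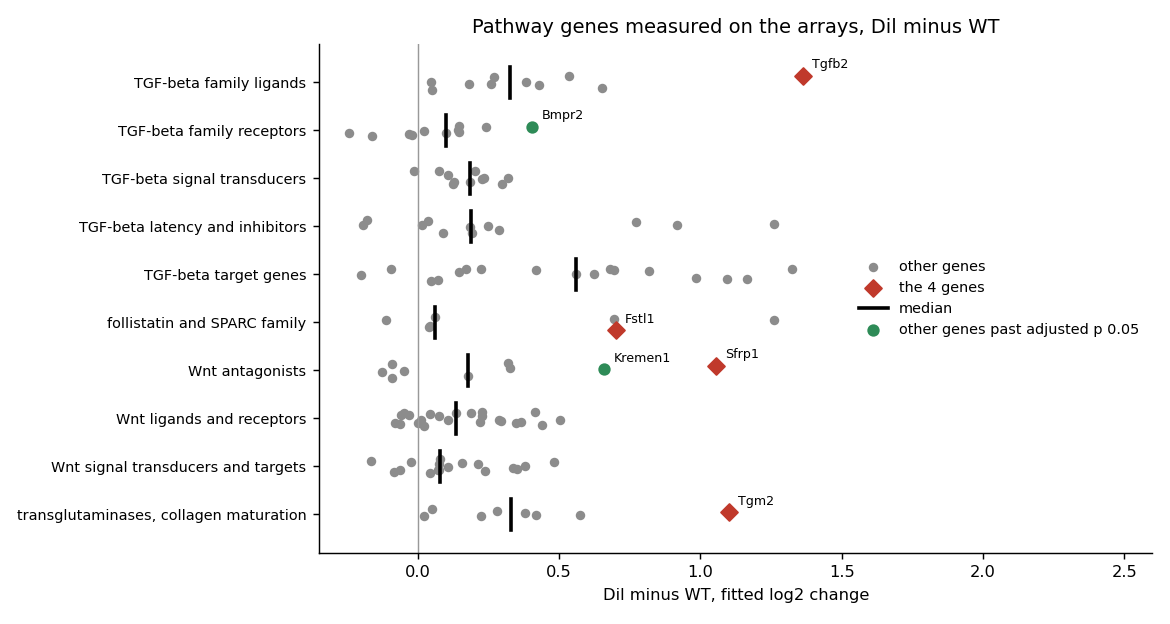
Fitted Dil minus WT on the log2 scale (horizontal axis) of every measured gene of 10 pathway lists (rows), with the 4 genes as red diamonds, other genes past an adjusted p of 0.05 in green, the rest in grey and list medians as black bars. Bmpr2 and Kremen1 are the only green points, and the TGF-beta target list has the highest median, 0.56.

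Beside Sfrp1, 8 Wnt antagonists were measured, with a median of 0.06, and 1 of them passed, Kremen1, a receptor that works with Dickkopf proteins to remove Wnt co-receptors. It rose by 0.66 ± 0.12 in Dil minus WT (limma adjusted p = 0.0276, 4 mice per group) and read 0.57, 0.15, 0.67 and 0.62 in sets 1 to 4. The call was lost without set 1 (adjusted p = 0.0610), set 3 (0.3083) or set 4 (0.1532), with the replicate block (0.1758), on direct arrays (0.0965) and after scaling all arrays to 1 spread (0.0921), and it held under 9 of 15 settings. In Dil minus Hyp it read 0.69 (adjusted p = 0.0520). Sfrp4, the other secreted frizzled-related gene measured, read 0.32 ± 0.18, and Dkk1, Dkk2 and Dkk3 read -0.05, -0.09 and -0.13.

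None of 23 Wnt ligands and receptors passed in any contrast, with a median of 0.13 in Dil minus WT and 17 of 23 above 0. Their median fitted dye effect was 0.42, and 13 of the 23 were above 0.3. Frizzled genes, the receptors to which Sfrp1 is related, read 0.50 (Fzd1), 0.02 (Fzd3), 0.22 (Fzd4), 0.11 (Fzd5), -0.06 (Fzd6) and 0.23 (Fzd7). None of 17 Wnt signal transducers and targets passed, and their median was 0.08.

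Beside Tgm2, 7 transglutaminases and collagen-maturing enzymes were measured. None of them passed in Dil minus WT, all 7 read above 0 (6 of 7 after scaling all arrays to 1 spread), and their median was 0.28. Tgm1, the keratinocyte transglutaminase, read 0.22 ± 0.08 and Plod3, a lysyl hydroxylase, 0.42 ± 0.14, both short of the threshold. No gene of any list passed in Hyp minus WT or Dil minus Hyp. The lists were written with earlier results of these arrays known, so these counts are descriptions.

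Markers of other cell types were few on the arrays. Of 9 measured fibroblast markers of 12 listed, 0 passed in Dil minus WT (limma, 2.15% of all features), 7 were above 0 and the median was 0.19. By set the median was -0.08, -0.06, 0.33 and 0.28 in sets 1 to 4. Col3a1 read 0.62, Col1a2 0.56, Vim 0.41, Col1a1 0.22 and Dcn 0.19, while Tcf21 read 0.04, Ddr2 0.03, Lum -0.05 and Pdgfra -0.20. The 3 collagens among these markers, Col1a1, Col1a2 and Col3a1, are also in the target list. The 7 endothelial markers had a median of -0.06, the 3 macrophage and leukocyte markers 0.19, the 3 mesothelial and epicardial markers 0.16, the 3 cardiomyocyte markers 0.08, the 3 smooth muscle markers -0.42, the 2 pericyte markers 0.19 and the 5 adipocyte markers -0.06. The single erythrocyte marker read 0.35, the single nerve marker 0.01, and 0 of 6 lymphocyte markers were measured. The fibroblast median was higher in sets 3 and 4, as Tgfb2, Fstl1 and Sfrp1 were, and the part of cell composition in the members' values was not tested.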

How the data were processed

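The authors deposited 1 table of ratios of the 2 dyes per spot and array, taken as log2 values; how they were scanned and normalized is not given in the sources used here. Column medians were -0.0114 to 0.0068 and values -3.64 to 5.12. Spot brightness was not used, so depth is unknown and the number of arrays limits precision. On the array of WT1 and Hyp1, 40 of 46 groups of 12 rows were moved back by 8 blocks, which raised its correlation with the summed ratios of WT1 against Dil1 and Dil1 against Hyp1 from 0.492 to 0.810 over named spots and left 3840 spots without a value.

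Of 17664 spots, 736 controls were left out, 12563 had 1 gene symbol in the platform annotation and 412 had several. Spots of a gene were averaged, and features needed a value on 9 of 11 arrays. Each was fitted by generalised least squares (Hyp minus WT, Dil minus WT, dye; mice as random effects, variance ratio 0.303) and moderated by eBayes (limma 3.58.1, R 4.3.3, with 3.26 as prior degrees of freedom); p-values were Benjamini-Hochberg adjusted over 12097 features, threshold 0.05. The fit was tested on simulated data. Same-numbered arrays share mice, so the set number pairs them by design. The labels do not say how the mice of a set were matched.

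Members and lists were chosen with earlier results of these data known. Named were the members, the 5 genes most like each (cosine over at least 10 arrays), list genes that passed, and measured relatives of the members.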

Additional observations from a re-analysis of the deposited data

Results flagged for a closer look

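Each gene's and each spot's values in sets 1 to 4 were searched for a set that stood apart, by Dixon's criterion, in 36 groups of 4 values. Chance marks about 1 in 20 such groups, and 4 were marked. These set values are least-squares values in which the dye effect cancels in sets 3 and 4 but not in set 1, nor in set 2 except for Dil minus WT, so they can differ from those with the dye cancelled. Sfrp1 in Dil minus Hyp read -0.297 in set 1 and 0.851, 1.026 and 0.970 in sets 2 to 4; its second spot, which had the large dye effect, read -1.393 on the set 1 array with Dil in Cy3, and with the dye effect cancelled the set 1 value of the gene was 0.414. The first Fstl1 spot in Hyp minus WT read 0.072 in set 4 and 0.388, 0.402 and 0.361 in sets 1 to 3, with -0.221 in set 1 once the dye effect was cancelled. The second Fstl1 spot in Dil minus WT read -0.040 in set 2 and 0.081, 0.088 and 0.076 in the others; with the dye effect cancelled set 1 read -0.122 and set 2 no longer stood apart. The same spot in Dil minus Hyp read 0.215 in set 3 and -0.067, -0.033 and -0.061 in the others, with 0.136 in set 1 once the dye effect was cancelled. The cause was not tested.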

How the results depend on the processing

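With 4 mice per group and 11 arrays, the counts of features depended on the settings. In Dil minus WT 260 features passed; 159 did with the array of WT1 and Hyp1 left out, 99 with arrays scaled to the same spread, 7 on the direct arrays only and 2 with the replicate block (Rcan1 and Lgals4), and leaving out 1 set in turn gave 0 to 121, with 121, 80, 0 and 12 without sets 1 to 4. In Dil minus Hyp 20 passed; 41 did with that array as deposited, 7 with it left out, 43 without a dye term, 52 without a mouse effect, and 0 on direct arrays or with the replicate block, and leaving out 1 set gave 0 to 15, with 15 without set 2 and 0 without each of the others. Hyp minus WT had 0 under every setting run. Tgfb2 in Dil minus Hyp passed with the array as deposited (1.246, adjusted p = 0.0378), without a dye term (1.254, 0.0297), without a mouse effect (1.270, 0.0303), with scaled arrays (0.993, 0.0101) and over features with a value on all 11 arrays (1.250, 0.0493), limma in each case; its adjusted p ran from 0.0101 to 0.9994 over the 15 settings. Tgfb2 in Hyp minus WT fell to -0.0056 on direct arrays. Single spots changed sign as follows: the first Tgfb2 spot in Hyp minus WT read -0.0246 on direct arrays and -0.0083 to 0.1148 with 1 set left out (below 0 without set 1); the second Fstl1 spot in Hyp minus WT read -0.0061 on direct arrays and -0.0286 to 0.1066 with 1 set left out (below 0 without set 1), and in Dil minus Hyp -0.0030 with scaled arrays, -0.0301 on direct arrays and -0.0393 to 0.0869 with 1 set left out (below 0 without set 3); the second Sfrp1 spot in Dil minus Hyp read -0.0610 with scaled arrays. Dil minus WT stayed above 0 under all 15 settings for the 4 genes, between 1.00 and 1.72 for Tgfb2, 0.51 and 0.88 for Fstl1, 0.82 and 1.29 for Sfrp1 and 0.80 and 1.40 for Tgm2. The replicate block gave 1.23, 0.67, 1.04 and 1.13 there. In the other contrasts it called no feature at all, and the main fit called none of the 4 genes. Their calls there therefore say nothing about stability. Causes were not tested. The fit of single spots and the dye-cancelled set values were added after seeing the data.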
